A study of Arabidopsis thaliana with 9 samples.

Results

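The glutathione transferase family was followed in seedlings of Arabidopsis thaliana, accession Col-0, that were harvested whole after silver nitrate had been added to their culture. The family was taken as 46 loci of the tau (GSTU, 28), phi (GSTF, 13), lambda (GSTL, 3), zeta (GSTZ, 1) and theta (GSTT, 1) classes, matched by locus to the probe annotation of the arrays. Each locus had 1 probe, and 46 of 46 members were among the 21042 genes tested, those detected (signal well above background in the scanner's own call) in all 3 replicates of some time. The probes of 45 members were detected on all 9 arrays, the exception being GSTU15, which was detected on 1 of 3 arrays at 0 h. Seedlings 3 weeks old were kept in shaken liquid culture at 22 °C under continuous light, silver nitrate was added to 0.1 mM, and plants were taken at the time of addition (0 h) and at 2 later times, 48 h and 72 h. There were 3 samples per time, from independent experiments with different plants, and RNA of each was labelled with Cy3 and hybridised to a 1-colour Agilent array. The samples used here include no untreated plants at 48 h or 72 h, so an effect of silver and an effect of 48 or 72 more hours in culture cannot be told apart.

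Glutathione transferases join the tripeptide glutathione to reactive, electrophilic compounds or use it to reduce peroxides, and many bind small molecules without turning them over. The tau and phi classes are the large plant classes and are best known for the detoxification of herbicides and other foreign compounds. Their conjugates are pumped into the vacuole by ABCC transporters, while lambda enzymes carry a catalytic cysteine in place of the serine of the other classes and act on thiols. Many tau genes lie side by side on the chromosomes, where they arose by tandem duplication.

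The 75th percentile of the signal of an array lay between 1612 and 3732 intensity units, lowest on replicate 3 of 0 h and next lowest on replicate 3 of 48 h, and both of those arrays were on slide 3. Replicates 1 and 2 of every time were on slides 1 and 2, and replicate 3 of 72 h was on slide 4. Replicate arrays had a correlation of 0.963 to 0.991 over genes. Leaf and root were both present by their markers: 4 photosynthesis and 5 root marker genes were above background on all arrays, and both seed markers were above background on none. Marker levels, summed over each list in units of the 75th percentile of the array, moved with time. The sum of the 4 photosynthetic markers was 327 to 365 at 0 h, 150 to 179 at 48 h and 144 to 171 at 72 h, with 3 and then 4 markers lower. Root hair markers summed to 0.778 to 1.75 at 0 h, 0.0571 to 0.106 at 48 h and 0.0166 to 0.0589 at 72 h, with 3 of 4 lower at 48 h and 4 of 4 at 72 h. PRP3 was above background on no array at 72 h. The 5 other root markers summed to 4.46 to 6.46, 3.87 to 4.98 and 3.89 to 5.27, with none called at 48 h and 2 higher and 1 lower at 72 h. All 4 xylem markers were higher at both times (sums of 1.82 to 2.55, then 3.75 to 4.46 and 3.27 to 3.56), and 3 and then 4 of 5 guard cell and stomatal markers were lower (sums of 2.49 to 2.95, then 1.57 to 2.16 and 1.47 to 1.72). Neither of 2 phloem markers was called, where 30.0% of all genes were called at 48 h and 36.2% at 72 h. The part of these marker shifts in the changes of the family was not tested, and in whole seedlings fewer cells of a type and less RNA per cell cannot be told apart.

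After 48 h, 21 of 46 members were higher than at 0 h, 4 were lower and 21 did not pass the test. The rises were in the tau class above all, from GSTU22 (16.4-fold) and GSTU25 (14.1-fold) down to GSTU13 (1.46-fold), and GSTL1 rose 13.8-fold and GSTF12 11.5-fold. The falls were GSTU28 (14.0-fold), GSTU14 (4.68-fold), GSTU18 (2.54-fold) and GSTL2 (1.85-fold). Calls rest on limma's moderated test, with Benjamini-Hochberg adjustment over all genes tested and a threshold of 0.05, and 30.0% of all genes were called at 48 h, 14.2% higher and 15.8% lower. In the family 45.7% of members were higher and 8.7% were lower. Of the 21 higher members, 18 had risen at least 2-fold (8.02% of all genes), and of the 4 lower members 3 had fallen at least 2-fold (9.07% of all genes). The median change was 0.65 on the log2 scale over the members and 0.02 over all genes. In 27 members (58.7%) the 3 arrays of 48 h did not overlap those of 0 h, as in 43.1% of all genes.

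After 72 h, 21 members were higher, 6 were lower and 19 did not pass the test, with GSTU12 (26.5-fold) now the largest rise and GSTU28 (23.0-fold) again the largest fall. Of all genes, 36.2% were called at 72 h, 16.9% higher and 19.4% lower, against 45.7% and 13.0% of the members. At least 2-fold rises were found in 19 members (9.19% of all genes) and at least 2-fold falls in 5 (11.8% of all genes). The median change was 0.79 for the members and 0.01 for all genes, and the arrays of 72 h and 0 h did not overlap in 34 members (73.9%; 50% of all genes). The comparisons at 48 h and 72 h share the 0 h arrays. Of the members, 18 were higher at both times (11.9% of all genes), 4 were lower at both (14.4% of all genes), 3 were higher at 48 h only, 3 higher at 72 h only and 2 lower at 72 h only. The remaining 16 were called at neither, and no member was called in opposite directions. Over all genes, 2986 were higher at 48 h and 3548 at 72 h, of which 2509 were higher at both. Of the 4079 genes lower at 72 h, 3037 were lower at both. An F test over the 3 times called 27 members, where 32.8% of all genes passed.

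The same-slide differences come from the same arrays as the calls, so they describe the called changes and are not separate evidence for them. All 25 members called at 48 h moved the same way on slides 1, 2 and 3, and all 27 called at 72 h moved the same way on slides 1 and 2, the only slides that held both 0 h and 72 h. The median change over the members was 0.53, 0.72 and 1.00 on the 3 slides at 48 h, and 0.66 and 0.94 on the 2 slides at 72 h. With slide as a block, 23 members were higher and 4 lower at 48 h, and 22 higher and 5 lower at 72 h, where the array on slide 4 adds nothing and 72 h rests on 2 arrays. Without slides 3 and 4, an alternative chosen after seeing the data, 17 were higher and 3 lower at 48 h, and 18 higher and 4 lower at 72 h. Of all 21042 genes, 6692 at 48 h and 5980 at 72 h were called with the block (3216 and 2695 higher). Without those slides 3037 and 4399 were called (1295 and 1880 higher), against 6309 and 7627 in the main fit (2986 and 3548 higher).

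**Figure D1:**
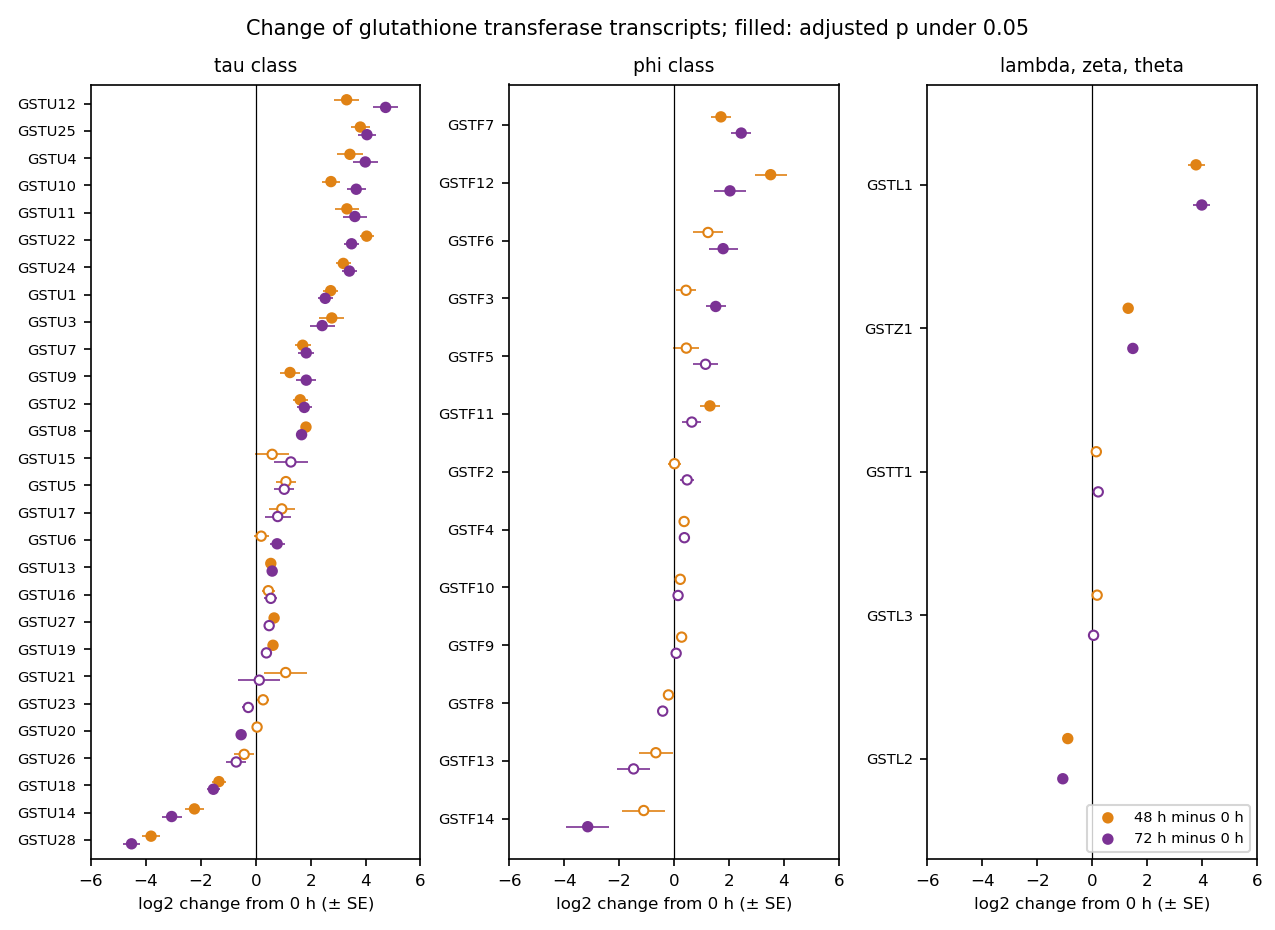
Change of each of the 46 members from 0 h (x axis, log2 difference between means of 3 arrays, bars ± standard error), at 48 h (orange) and 72 h (purple), in tau, phi and the 3 small classes, sorted by the change at 72 h; filled points had an adjusted p under 0.05. Tau members span from GSTU12 (4.73) to GSTU28 (-4.52), and phi members from GSTF7 (2.45) to GSTF14 (-3.14), at 72 h.

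Values by array are given below as scaled signal, which is the log2 of the signal minus the log2 of the 75th percentile of the array, in the order of replicates 1, 2 and 3. Changes are log2 differences from 0 h ± standard error, with 3 arrays per time. A probe's level is not comparable with that of another probe.

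The largest rise was that of GSTU12 (AT1G69920), a tau member beside GSTU11 (AT1G69930) on chromosome 1. Its scaled signal was -1.93, -1.44 and -1.35 at 0 h, 0.87, 1.5 and 2.82 at 48 h and 3.61, 2.68 and 3.18 at 72 h. Every array of 48 h lay above every array of 0 h, and 72 h overlapped only the highest array of 48 h. The change was 3.31 ± 0.46 at 48 h (adjusted p = 0.00112) and 4.73 ± 0.46 at 72 h (adjusted p = 0.000158). GSTU11 went from -1.15, 0.37 and 0.38 to 2.56, 3.42 and 3.58 at 48 h and 3.12, 3.61 and 3.68 at 72 h. Replicate 1 was the lowest array of GSTU11 at each time, and the change was 3.32 ± 0.44 and then 3.61 ± 0.44 (12.2-fold at 72 h).

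GSTU24 (AT1G17170) and GSTU25 (AT1G17180), neighbours on chromosome 1 whose enzymes conjugate the explosive trinitrotoluene, rose to a similar degree. GSTU25 read 0.62, -0.16 and -0.67 at 0 h, 3.79, 4.0 and 3.44 at 48 h and 3.72, 3.73 and 4.49 at 72 h, so that both later groups stood far above every array of 0 h. This was a change of 3.81 ± 0.34 (adjusted p = 0.000172) and 4.05 ± 0.34 (adjusted p = 9.4e-05). GSTU24 read 1.20, 0.95 and 0.72, then 4.03, 4.29 and 4.12, then 4.19, 3.85 and 5.04. Its replicates were close at 0 h and 48 h, and replicate 3 stood above the others at 72 h, with changes of 3.19 ± 0.28 and 3.41 ± 0.28 (10.6-fold).

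GSTU22 (AT1G78340) was the largest rise at 48 h. Its arrays read -0.81, -1.49 and -1.58 at 0 h, 3.01, 2.40 and 2.82 at 48 h and 1.88, 2.42 and 2.30 at 72 h. The change was 4.04 ± 0.26 (adjusted p = 4.57e-05) at 48 h and 3.49 ± 0.26 (adjusted p = 5.41e-05, 11.3-fold) at 72 h, and the groups of 48 h and 72 h overlapped. GSTU10 (AT1G74590) read -0.80, -1.43 and -1.91 at 0 h, 1.32, 0.87 and 1.90 at 48 h and 2.61, 1.98 and 2.26 at 72 h. All 3 of its arrays at 72 h were above those of 48 h, a difference that was not called (0.92, adjusted p = 0.443), and its change from 0 h was 2.74 ± 0.34 and then 3.66 ± 0.34 (12.7-fold, adjusted p = 0.000126).

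GSTU4 (AT2G29460), whose protein has been placed with the enzymes of camalexin synthesis, and GSTU1 (AT2G29490) belong to a run of 7 tau genes on chromosome 2. GSTU4 read -2.40, -0.51 and -1.48 at 0 h, 1.52, 2.63 and 1.75 at 48 h and 2.35, 2.57 and 2.68 at 72 h. Its 0 h arrays were widely spread, yet none reached the later arrays, and the change was 3.43 ± 0.46 (10.8-fold) and 3.99 ± 0.46 (15.9-fold, adjusted p = 0.000326). GSTU1 read 0.40, 0.31 and 0.17, then 2.51, 3.52 and 3.03, then 2.41, 2.93 and 3.12. That is a change of 2.73 ± 0.27 (6.62-fold) and 2.53 ± 0.27 (5.76-fold, adjusted p = 0.000235), with tight 0 h arrays.

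**Figure D2:**
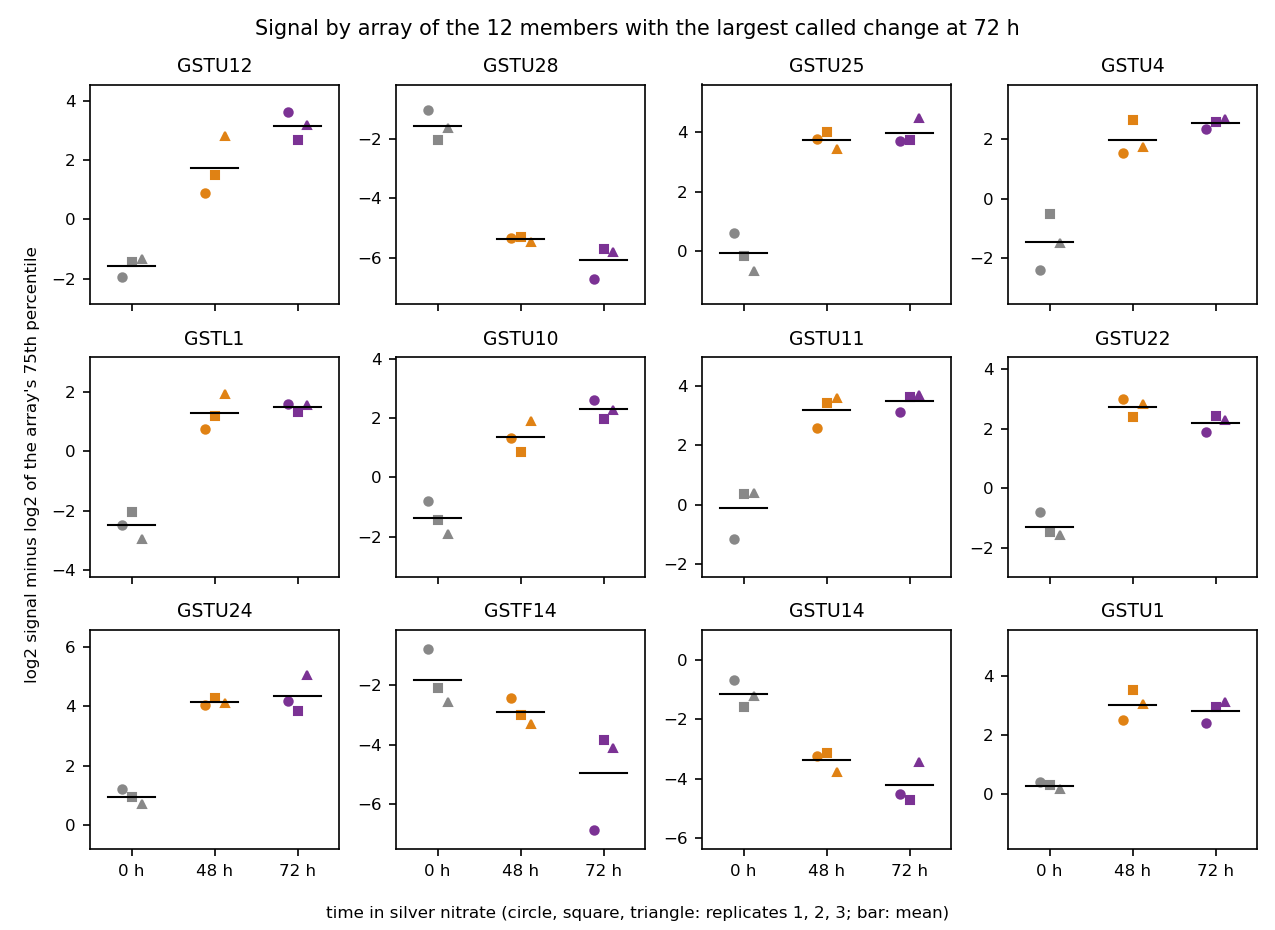
Scaled signal (y axis, log2 signal minus log2 of the 75th percentile of the array; each panel spans the same range) of the 12 members with the largest called change at 72 h, on the 3 arrays of 0 h, 48 h and 72 h (x axis); circles, squares and triangles are replicates 1, 2 and 3 and bars are means. In GSTU28 and GSTU14 the later arrays are lower than those of 0 h. In GSTF14 the arrays of 72 h are lower and those of 48 h overlap 0 h. In the other 9 panels the later arrays are higher.

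The falls of 3 tau members were as well separated. GSTU28 (AT1G53680) read -1.01, -2.04 and -1.63 at 0 h, -5.32, -5.31 and -5.46 at 48 h and -6.72, -5.72 and -5.81 at 72 h, and its probe was above background on all 9 arrays. The later groups lay far below every array of 0 h, and the change was -3.81 ± 0.32 (adjusted p = 0.000121) and then -4.52 ± 0.32 (adjusted p = 4.54e-05). The later arrays of GSTU28 were dim, so the size of its fall depends on the background treatment. With normexp background correction its changes were -2.95 and -3.42, and both calls held. GSTU14 (AT1G27140) read -0.66, -1.60 and -1.20, then -3.24, -3.14 and -3.77, then -4.50, -4.70 and -3.44. Its change was -2.23 ± 0.36 (adjusted p = 0.00235) and -3.06 ± 0.36 (8.32-fold lower, adjusted p = 0.000389), and the later groups overlapped each other. GSTU18 (AT1G10360) had changes of -1.34 ± 0.25 and -1.54 ± 0.25 (2.90-fold lower, adjusted p = 0.00195), with 0 h arrays between 1.99 and 2.89 and later arrays between 0.51 and 1.23. Its call at 48 h ended without slides 3 and 4 (adjusted p = 0.0566; 0.0024 to 0.0566 over the alternatives). Photosynthetic, root hair and stomatal markers were lower in the same samples, as given above, and their part in these falls was not tested.

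A further 6 tau members rose at both times. GSTU3 (AT2G29470) had the largest changes among them, 2.77 ± 0.46 at 48 h and 2.42 ± 0.46 at 72 h, from 0 h arrays of -5.09, -3.96 and -4.96. Both of its calls ended when slides 3 and 4 were left out (2.37, adjusted p = 0.07, and 2.17, adjusted p = 0.0713), the highest of the alternatives, which went down to 0.00108 and 0.00121. With normexp background correction its changes were 1.99 and 1.66. GSTU2 (AT2G29480) changed by 1.62 ± 0.28 and 1.77 ± 0.28, and GSTU7 (AT2G29420) by 1.71 ± 0.29 and 1.84 ± 0.29. GSTU8 (AT3G09270) had later arrays between 4.35 and 4.64 against 2.5 to 3.04 at 0 h, and changed by 1.83 ± 0.15 and 1.67 ± 0.15 (adjusted p = 0.000111 at 72 h). GSTU9 (AT5G62480) changed by 1.25 ± 0.37 (adjusted p = 0.032) and 1.84 ± 0.37 (adjusted p = 0.00475). The call of GSTU9 at 48 h ended without 0 h replicate 2 or any 1 of the 48 h replicates (1.05 to 1.33, adjusted p = 0.0598 to 0.107; 0.00389 to 0.107 over all alternatives). GSTU13 (AT1G27130), of the indole glucosinolate branch of immunity, rose little but evenly, from -0.89, -0.98 and -0.88 to -0.40, -0.27 and -0.44 and then -0.38, -0.31 and -0.27. Its change of 0.55 ± 0.11 (adjusted p = 0.00614) and 0.60 ± 0.11 (adjusted p = 0.00323) was small beside those of the others. Its moderated standard deviation (limma's estimate, drawn toward a value shared by all genes) was 0.13, at percentile 1.87 of all genes.

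The calls of 4 tau members were at 1 time only. GSTU19 (AT1G78380), an abundant cytosolic enzyme induced by many foreign compounds, read 5.61, 5.83 and 5.89 at 0 h, 6.24, 6.67 and 6.31 at 48 h and 6.08, 6.08 and 6.34 at 72 h. Its rise was 1.55-fold at 48 h (0.63 ± 0.16, adjusted p = 0.0168), a call that ended with median scaling (0.525, adjusted p = 0.0592), without 48 h replicate 2 (0.496, adjusted p = 0.0576) and when slides 3 and 4 were left out (0.732, adjusted p = 0.067), over a range of 0.000858 to 0.067. At 72 h its change was 0.39 ± 0.16 (adjusted p = 0.0855). GSTU27 (AT3G43800) read 1.48, 1.29 and 0.73, then 1.81, 2.01 and 1.71, then 1.70, 1.69 and 1.57. Neither later group overlapped 0 h, and the change was 0.67 ± 0.19 at 48 h (adjusted p = 0.0305) and 0.49 ± 0.19 at 72 h (adjusted p = 0.0841). The call of GSTU27 at 48 h ended under 7 of 20 alternatives, among them without 0 h replicate 2 or any 1 replicate of 48 h (0.59 to 0.74, adjusted p = 0.0515 to 0.101; 0.0127 to 0.101 over all alternatives).

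GSTU20 (AT1G78370), linked to aliphatic glucosinolates and to jasmonate signalling, read 6.24, 5.90 and 5.92 at 0 h, 5.93, 6.22 and 6.06 at 48 h and 5.48, 5.67 and 5.33 at 72 h. It was lower at 72 h (-0.53 ± 0.15, adjusted p = 0.0254), with no overlap with 0 h, and its change at 48 h was 0.05 ± 0.15. The call ended under 8 of 20 alternatives (adjusted p = 0.0242 to 0.306 over all), including quantile normalization (-0.20), slide as a block (-0.47, adjusted p = 0.115), and without 0 h replicate 1 (-0.42), 72 h replicate 1 (-0.52) or 72 h replicate 3 (-0.45). GSTU6 (AT2G29440) read -0.14, -0.33 and -0.77, then -0.39, 0.19 and -0.45, then 0.10, 0.82 and 0.17. Only the 72 h arrays lay above 0 h, by 0.78 ± 0.27 (adjusted p = 0.0483). This call ended under 13 of 20 alternatives, including slide as a block (0.73, adjusted p = 0.0774). Leaving out 1 array ended it too, be it replicate 2 or 3 of 0 h, replicate 1 or 3 of 48 h, or any of 72 h (0.55 to 0.91, adjusted p = 0.052 to 0.15; 0.0194 to 0.19 over all alternatives).

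The other 7 tau members were called at neither time. GSTU5 (AT2G29450) came nearest, with 0 h arrays of 2.63 to 2.98 and later arrays of 3.21 to 4.66, a change of 1.10 ± 0.37 (adjusted p = 0.0563) and 1.04 ± 0.37 (adjusted p = 0.0587). It passed under 7 alternatives at 48 h and 8 at 72 h (adjusted p = 0.00865 to 0.252 and 0.00866 to 0.236 over all), among them slide as a block (adjusted p = 0.0185 and 0.0326), quantile normalization, normexp correction and the deposited values. It also passed without 48 h replicate 1 at both times (adjusted p = 0.0235 and 0.0378), without 72 h replicate 2 at 48 h (adjusted p = 0.0472) and without 48 h replicate 2 at 72 h (adjusted p = 0.0242). GSTU17 (AT1G10370, also ERD9), a regulator of drought and light responses, changed by 0.95 ± 0.47 and 0.80 ± 0.47 and passed with slide as a block (0.95, adjusted p = 0.0318, and 0.99, adjusted p = 0.0475; up to 0.418 and 0.556 under other alternatives). GSTU15, GSTU16 and GSTU21 had changes of 0.13 to 1.28, GSTU23 of 0.27 and -0.27, and GSTU26 of -0.42 and -0.71. Leaving out 1 array took some of these past the threshold: 0 h replicate 2 for GSTU15 (1.40 and 2.07, adjusted p = 0.031 and 0.00531), 0 h replicate 1 for GSTU16 (0.71, adjusted p = 0.048) and 72 h replicate 1 for GSTU26 (-1.15, adjusted p = 0.00729), the last 2 at 72 h. Over all alternatives the adjusted p went up to 0.992 and 0.631 for GSTU15, 0.35 for GSTU16 and 0.431 for GSTU26. GSTU21 ranged from -6.85 to -4.32 at 0 h alone, which exceeds both of its changes.

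In the phi class 3 of 13 members were higher at 48 h and 0 lower, and 4 were higher and 1 lower at 72 h. GSTF7 (AT1G02920), a pathogen-responsive member, and its neighbour GSTF6 (AT1G02930), which supplies glutathione conjugates for camalexin synthesis, rose. GSTF7 read 1.14, 1.67 and 1.87 at 0 h, 2.88, 2.86 and 4.08 at 48 h and 4.33, 3.63 and 4.06 at 72 h. This gave 1.71 ± 0.36 (3.28-fold, adjusted p = 0.00739) and 2.45 ± 0.36 (5.46-fold, adjusted p = 0.00102). GSTF6 read 1.99, 3.37 and 3.98, then 3.81, 4.02 and 5.24, then 5.22, 4.67 and 4.84. Its 0 h arrays were widely spread and overlapped 48 h but not 72 h, with 1.24 ± 0.53 (adjusted p = 0.112) at 48 h and 1.79 ± 0.53 (adjusted p = 0.0276) at 72 h. The call of GSTF6 at 72 h ended without 0 h replicate 1 or 2 or any 1 replicate of 72 h (1.23 to 1.92, adjusted p = 0.0509 to 0.0807; 0.0127 to 0.0807 over all alternatives). Without 0 h replicate 3 its change at 48 h passed (1.68, adjusted p = 0.0489; up to 0.314 under others). Probe sequences were not used here, and how far near-identical members such as these share signal was not tested.

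GSTF12 (AT5G17220), the carrier of anthocyanins to the vacuole also known as TRANSPARENT TESTA 19, rose most in the phi class at 48 h. It read -3.93, -3.56 and -2.87 at 0 h, -0.55, 0.63 and 0.13 at 48 h and -2.68, -0.26 and -1.30 at 72 h. At 48 h the change was 3.52 ± 0.58 (adjusted p = 0.00247). At 72 h the replicates were widely spread with replicate 1 lowest, and the change was 2.04 ± 0.58 (4.11-fold, adjusted p = 0.0248). The call at 72 h ended when replicate 1 or 2 of 0 h, or replicate 2 or 3 of 72 h, was left out (1.46 to 1.98, adjusted p = 0.063 to 0.0718) and when slides 3 and 4 were left out (2.27, adjusted p = 0.126), while without 72 h replicate 1 the change was 2.67 (adjusted p = 0.00434, the lowest of the alternatives).

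Of 9 anthocyanin pathway genes listed beside GSTF12, 7 were measured, and PAP2 and TT12 were not above background on all 3 arrays of any time. At 48 h 5 were higher and 0 lower, where 14.2% of all genes were higher and 15.8% lower (16.9% and 19.4% at 72 h). The 5 were DFR (4.06 ± 0.57) and LDOX (3.76 ± 0.64), of the late enzymatic steps, UF3GT (2.88 ± 0.55), a glycosyltransferase gene, and the regulators PAP1 and TT8. PAP1 changed by 4.93 ± 0.70, from dim 0 h arrays of -6.93, -5.53 and -5.67. TT8 changed by 2.45 ± 0.79 (adjusted p = 0.0463) and was above background on 2 of 3 arrays at 0 h. At 72 h DFR (2.60 ± 0.57), LDOX (2.43 ± 0.64) and PAP1 (3.45 ± 0.70) were still higher than at 0 h. The early enzymes CHS (-1.94 ± 0.59, adjusted p = 0.0311) and F3H (-1.35 ± 0.46, adjusted p = 0.0491) were lower at 72 h. On slides 1 and 2 those falls were uneven, -2.78 and -0.67 for CHS and -2.66 and -0.22 for F3H. The calls of partner genes were not examined under the alternatives. The median of the 7 changes was 2.88 at 48 h and 1.46 at 72 h. On the 72 h arrays, replicate 1 was the lowest and replicate 2 the highest for each of the 7, as for GSTF12.

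**Figure D3:**
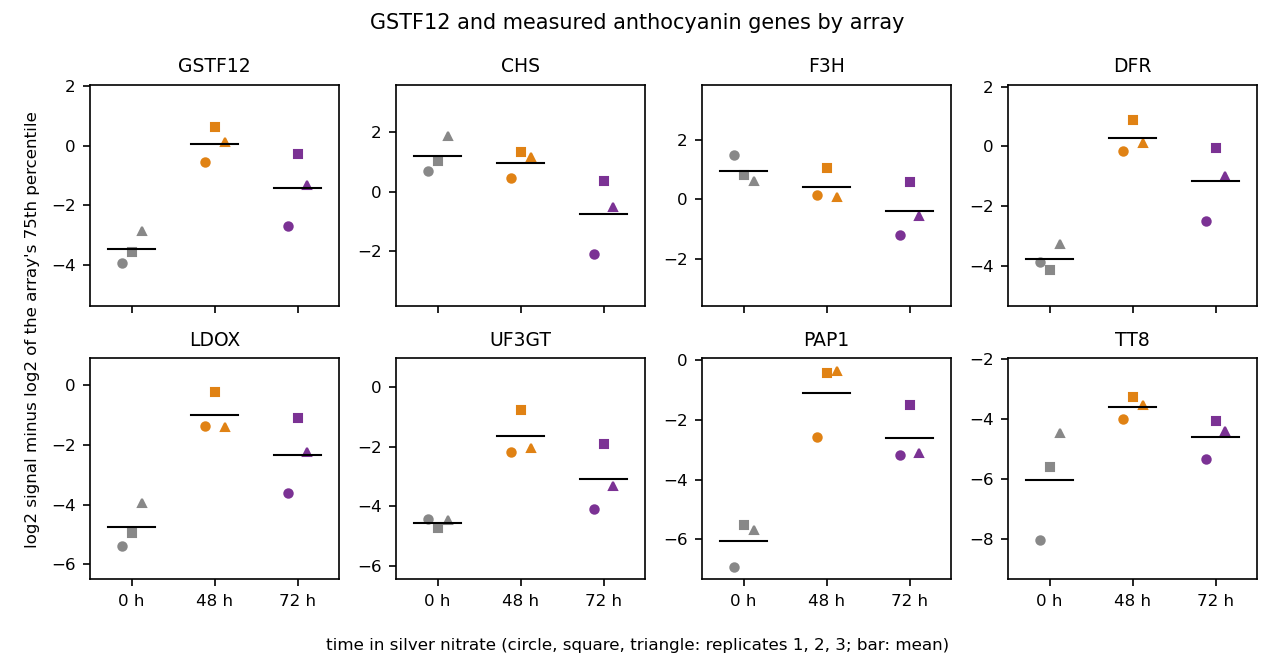
Scaled signal (y axis, log2 signal minus log2 of the 75th percentile of the array; each panel spans the same range) of GSTF12 and the 7 measured anthocyanin genes on the 3 arrays of 0 h, 48 h and 72 h (x axis); circles, squares and triangles are replicates 1, 2 and 3 and bars are means. GSTF12, DFR, LDOX, UF3GT, PAP1 and TT8 are highest at 48 h, and at 72 h replicate 1 is the lowest array in every panel.

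A call at 1 time only was made for 3 more phi members. GSTF11 (AT3G03190), of aliphatic glucosinolate synthesis, read 1.15, 0.12 and -0.42 at 0 h, 1.5, 1.76 and 1.52 at 48 h and 0.94, 1.15 and 0.72 at 72 h. It was higher at 48 h (1.31 ± 0.35, adjusted p = 0.0213), and at 72 h its change was 0.65 ± 0.35 (adjusted p = 0.177), with replicate 1 of 0 h as high as the 72 h arrays. Without that array the change at 72 h passed (1.09, adjusted p = 0.00477; up to 0.485 under other alternatives). The call at 48 h ended without 0 h replicate 2, 48 h replicate 2 or 48 h replicate 3 (1.22 to 1.35, adjusted p = 0.0537 to 0.0695) and when slides 3 and 4 were left out (0.996, adjusted p = 0.134), with 0.000803 as the lowest adjusted p of the alternatives.

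GSTF3 (AT2G02930) read 0.64, 0.53 and -0.06 at 0 h, 0.85, 0.58 and 1.00 at 48 h and 2.55, 1.01 and 2.09 at 72 h. It was higher at 72 h by 1.52 ± 0.37 (2.86-fold, adjusted p = 0.0125), with replicate 2 of 72 h close to the 48 h arrays, and the call ended with slide as a block (1.35, adjusted p = 0.065) and when slides 3 and 4 were left out (1.20, adjusted p = 0.16), over a range of 0.00176 to 0.16. GSTF14 (AT1G49860) was the phi member that was called lower. It read -0.77, -2.11 and -2.55 at 0 h, -2.43, -2.99 and -3.31 at 48 h and -6.89, -3.86 and -4.11 at 72 h. Replicate 1 was the highest array at 0 h and at 48 h and the lowest at 72 h, and the change was -1.10 ± 0.78 at 48 h and -3.14 ± 0.78 at 72 h (8.83-fold lower, adjusted p = 0.014). Without slides 3 and 4 the change at 72 h was -3.93 (adjusted p = 0.0558), and without 72 h replicate 1, the lowest array, it was -2.17 (adjusted p = 0.0142; 0.00409 to 0.0558 over all alternatives).

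The other 7 phi members were called at neither time. GSTF9 (AT2G30860) and GSTF10 (AT2G30870), a neighbouring pair linked to indole glucosinolates, had 0.28 ± 0.12 and 0.23 ± 0.12 at 48 h and 0.08 ± 0.12 and 0.15 ± 0.12 at 72 h. Quantile normalization gave 0.50 to 0.62 for this pair and called both at both times (adjusted p = 0.00337 to 0.0159; up to 0.889 under others). Without 0 h replicate 1, GSTF9 passed at 48 h (0.37, adjusted p = 0.0384). GSTF8 (AT2G47730), a marker gene of early oxidative stress, had -0.20 ± 0.16 and -0.41 ± 0.16, and passed at 72 h without 48 h replicate 3 (-0.41, adjusted p = 0.0462; up to 0.408 under others). GSTF2 (AT4G02520), which binds indole compounds including camalexin, had 0.02 ± 0.25 and 0.48 ± 0.25 and passed at 72 h with quantile normalization (0.83, adjusted p = 0.0274) and in the deposited value table (0.70, adjusted p = 0.0454), with 0.408 as the highest adjusted p. GSTF4 (AT1G02950) had 0.37 ± 0.19 and 0.38 ± 0.19, and passed at both times without 0 h replicate 1 (0.565 and 0.58, adjusted p = 0.0265 and 0.0202; up to 0.473 and 0.555 under others). GSTF5 (AT1G02940), at 0.45 ± 0.47 and 1.15 ± 0.47, passed at 72 h under 4 alternatives, among them slide as a block (1.63, adjusted p = 0.022) and the omission of 0 h replicate 3 (1.51, adjusted p = 0.0467), over a range of 0.022 to 0.899. GSTF13 (AT3G62760) had -0.66 ± 0.61 and -1.47 ± 0.61, with 72 h arrays of -4.32, -1.44 and -2.40, and passed at 72 h without 72 h replicate 2 (-2.11, adjusted p = 0.0187; up to 0.287 under others), whereas without 72 h replicate 1, the lowest array, the change was -0.67 (adjusted p = 0.167).

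The 3 lambda members, which act on thiols through a catalytic cysteine, went 3 ways. GSTL1 (AT5G02780) read -2.49, -2.05 and -2.97 at 0 h, 0.75, 1.18 and 1.91 at 48 h and 1.59, 1.33 and 1.54 at 72 h. It rose by 3.78 ± 0.31 (adjusted p = 0.000121) and 3.99 ± 0.31 (15.9-fold, adjusted p = 7.24e-05). GSTL2 (AT3G55040), whose enzyme is sent to the plastid, read 1.31, 1.39 and 1.45, then 0.36, 0.65 and 0.49, then 0.39, 0.37 and 0.19. Its fall was small and even, by -0.89 ± 0.12 (adjusted p = 0.00112) and -1.07 ± 0.12 (2.10-fold lower, adjusted p = 0.000343), in samples whose photosynthetic markers were lower too. GSTL3 (AT5G02790), next to GSTL1 on chromosome 5, read 3.92, 3.82 and 3.58, then 3.84, 4.19 and 3.84, then 3.81, 3.98 and 3.67. Its groups overlapped at all times, and the changes were 0.18 ± 0.16 and 0.05 ± 0.16.

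GSTZ1 (AT2G02390), the maleylacetoacetate isomerase of tyrosine breakdown, read -0.70, -0.93 and -1.07 at 0 h, 0.22, 0.59 and 0.42 at 48 h and 0.61, 0.43 and 0.72 at 72 h. It rose by 1.31 ± 0.15 (2.48-fold, adjusted p = 0.00053) and 1.48 ± 0.15 (2.80-fold, adjusted p = 0.000216). GSTT1 (AT5G41210), a peroxisomal enzyme that can reduce hydroperoxides, read 1.83, 1.76 and 1.58, then 1.88, 2.10 and 1.65, then 1.98, 1.98 and 1.89. Its changes were 0.15 ± 0.14 (adjusted p = 0.486) and 0.22 ± 0.14 (adjusted p = 0.258). The dehydroascorbate reductases, relatives of the lambda class that recycle ascorbate with glutathione, were listed apart. The cytosolic DHAR1 and DHAR2 rose (1.00 ± 0.16 and 1.38 ± 0.15 at 48 h) and the plastid DHAR3 fell (-0.94 ± 0.15), with the same directions at 72 h.

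The classes thus differed in their counts, which are a description, since members are not replicates and no test between classes was run. In tau, 19 of 28 members (67.9%) were called at 48 h, 16 higher and 3 lower, and 19 were called at 72 h, 15 higher and 4 lower. In phi, 3 of 13 (23.1%) and 5 of 13 (38.5%) were called, where 30.0% and 36.2% of all genes were. The median change of tau was 1.09 at 48 h and 1.16 at 72 h, and that of phi 0.37 and 0.48. Both classes had more positive than negative changes, 24 of 28 and 10 of 13 at 48 h, against 51.4% of all genes. The count of higher phi members depended on the setting: quantile normalization gave 5 at 48 h and 7 at 72 h, the deposited values gave 7 at 72 h, and leaving out 0 h replicate 1 gave 5 at 48 h. Without 0 h replicate 2, 72 h replicate 2 or 72 h replicate 3 it was 2 at 72 h. The lower phi count at 72 h was 2 without 48 h replicate 3 or without 72 h replicate 2, and 0 without slides 3 and 4.

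Replicates were more spread in the median member than in the median gene, though not in every member. The moderated standard deviation of limma had a median of 0.37 over the members and 0.24 over all genes, on the log2 scale. It was highest for GSTF14 (0.96), GSTU21 (0.94), GSTU15 (0.77), GSTF13 (0.75) and GSTF12 (0.71) and lowest for GSTU13 (0.13), GSTF9, GSTF10 and GSTL2 (0.15 each). GSTU13 and GSTL2 were therefore called on small changes, whereas GSTF13 was not called on a change of -1.47.

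By the order of loci in the reference gene table, 29 of the 46 members lay in 9 groups of neighbours with at most 2 other protein-coding genes between them. The other 17 had no listed member that near. Only listed members were counted, so glutathione transferase genes outside the list may lie beside them. In the run of 7 tau genes on chromosome 2 (GSTU7 to GSTU1), 5 were higher at 48 h and 6 at 72 h, and all 7 changes were positive, from 0.78 (GSTU6) to 3.99 (GSTU4) at 72 h. Of the 5 genes GSTU23 to GSTU19 on chromosome 1, GSTU22 rose 16.4-fold at 48 h, while its neighbours changed by 0.27 (GSTU23), 1.09 (GSTU21), 0.05 (GSTU20) and 0.63 (GSTU19), of which only that of GSTU19 was called. The changes of this group spanned 4.02 log2 units at 72 h, with GSTU20 called lower. GSTU26, beside GSTU24 and GSTU25, had -0.71 ± 0.36 at 72 h where those had 3.41 and 4.05.

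Pairs of neighbours also parted. GSTU13 rose and GSTU14 fell at both times, and they differed by 3.66 log2 units in their change at 72 h. GSTU18 fell while GSTU17 was not called (2.34 log2 units apart), and GSTL1 rose while GSTL3 was not called (3.94 apart). GSTU12 and GSTU11 rose together, GSTF9 and GSTF10 stayed within 0.07 of each other in their change at 72 h, and of GSTF7 to GSTF4 the first 2 were higher at 72 h. Differences between neighbours were not tested.

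**Figure D4:**
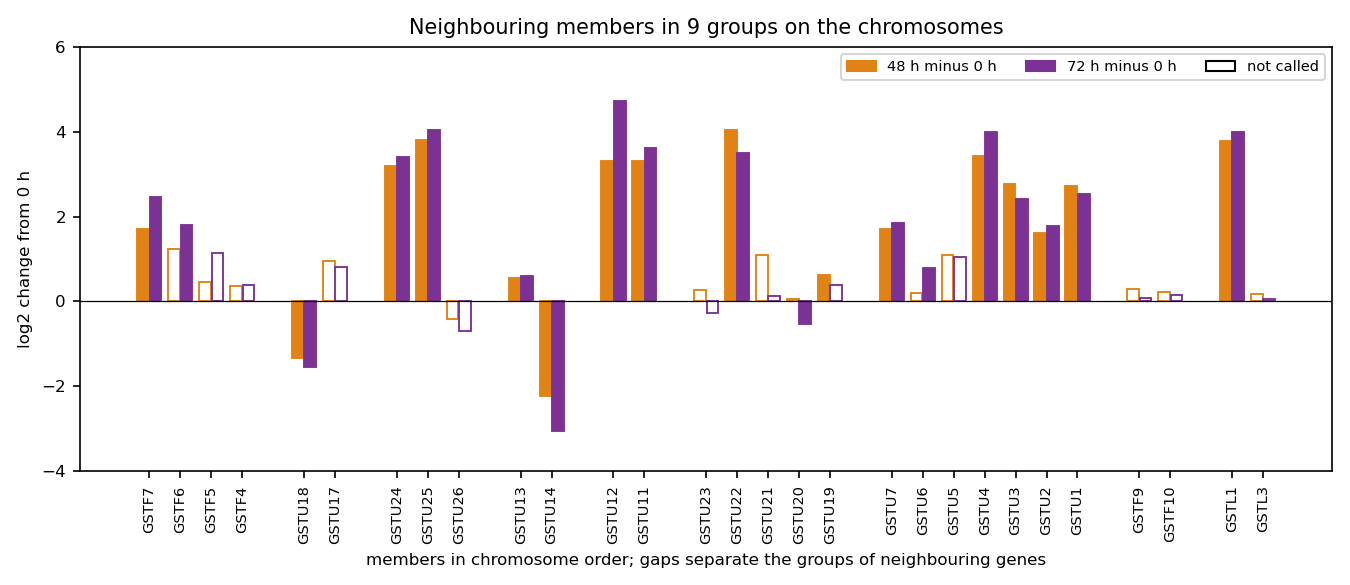
Change from 0 h (y axis, log2 difference between means of 3 arrays) at 48 h (orange) and 72 h (purple) for the 29 members in 9 groups of neighbouring genes, in chromosome order (x axis; gaps separate groups); open bars were not called. The run GSTU7 to GSTU1 has positive bars throughout, while GSTU13 and GSTU14 point in opposite directions.

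Between 48 h and 72 h no member was called, and 0% of all 21042 genes were (limma, smallest adjusted p = 0.0512 over all genes and 0.259 over the members). At an unadjusted p under 0.05 there were 1929 genes and 7 members: GSTU10, GSTU12, GSTU20, GSTU23, GSTF3, GSTF12 and GSTF14. Their differences, 72 h minus 48 h, were 0.92, 1.42, -0.57, -0.54, 1.07, -1.49 and -2.04. The median difference was -0.07 over the members and -0.01 over all genes.

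Genes that make, recycle, break down or use glutathione beside the transferases were counted from short lists of named genes. Of all genes, 14.2% were higher and 15.8% lower at 48 h, and 16.9% were higher and 19.4% lower at 72 h. For synthesis and recycling, 1 of 4 was higher at 48 h (0 lower), namely GSH2, of the second step of glutathione synthesis (0.81 ± 0.21, adjusted p = 0.0203). GSH1, of the first and limiting step, had 0.14 ± 0.14 and 0.15 ± 0.14, and the glutathione reductase GR1 had 0.63 ± 0.26 and 0.54 ± 0.26. At 72 h GSH2 was higher (0.90 ± 0.21) and the plastid glutathione reductase GR2 lower (-0.60 ± 0.15, adjusted p = 0.0145). For breakdown, 3 of 8 were higher and 1 lower at 48 h, and 5 were higher and 0 lower at 72 h. GGCT2;1, of the cytosolic breakdown of glutathione, rose by 3.61 ± 0.47 and 4.65 ± 0.47 (25.0-fold, adjusted p = 0.000189), from 0 h arrays of -3.72, -2.98 and -3.36 to 72 h arrays of 0.52, 1.79 and 1.58. Its homologue GGCT2;2 had -0.25 ± 0.19 at 48 h and rose by 0.76 ± 0.19 at 72 h. GGT2, which encodes a gamma-glutamyl transpeptidase, had 1.09 ± 0.43 at 48 h (adjusted p = 0.0878). At 72 h GGT2 rose by 3.54 ± 0.43 (11.7-fold, adjusted p = 0.000405). Its 0 h arrays were above background but dim, at -5.68, -6.65 and -6.08, which limits the precision of that fold. The homologue GGT1 was lower at 48 h (-0.67 ± 0.13) and had -0.32 ± 0.13 at 72 h. GGT4, of the vacuolar degradation of conjugates, rose by 0.86 ± 0.18 and 1.02 ± 0.18, and GGP1, which trims glutathione conjugates in glucosinolate and camalexin synthesis, by 0.85 ± 0.19 and 0.92 ± 0.19.

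Of the 3 vacuolar conjugate pumps, ABCC2 (1.02 ± 0.20 and 1.08 ± 0.20) and ABCC3 (0.63 ± 0.18 and 0.84 ± 0.18) rose at both times, and ABCC1 had 0.42 ± 0.18 at each. TGA factors are bZIP proteins that bind the promoters of several stress-induced transferase genes, partly with the cofactor SCL14. Of these 8 genes 2 rose at each time and 0 fell, TGA3 (1.00 ± 0.13 and 0.88 ± 0.13) and TGA7 (1.71 ± 0.25 at both, 3.28-fold at 48 h). So 25% of this list was called at each time, against 30.0% and 36.2% of all genes. The median changes at 48 h were 0.39 for synthesis and recycling, 0.69 for breakdown, 0.63 for the pumps and 0.37 for the TGA list, beside 0.02 over all genes.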

How the data were processed

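The authors deposited, for each of 9 arrays, a scanner file of Agilent Feature Extraction 9.5.3.1 (per the submitters' processing notes), with a processed signal given as intensity after background subtraction and spatial detrending, per the file headers, and with no scaling between arrays. They also deposited a value table, a ratio on a linear scale. Over 22644 probes its log2 differences between arrays equalled those of the processed signal to within 0.0234 after 1 constant per array, so scale and direction were known; its centring per probe was not stated, and array medians were 0.901 to 1.11. It served as an alternative. Of 39102 spots, 37685 were not controls; 80 outlier spots were dropped, none was saturated, and no value of a member was missing.

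The log2 intensity minus the log2 of the 75th percentile of the array was tested with limma 3.58.1 in R 4.3.3, with 1 mean per time over all 9 arrays (6 residual and 2.54 prior degrees of freedom), two-sided, for genes detected (well above background) in all 3 replicates of some time, the brightest probe standing for a locus. The fit was also run on simulated data with independent noise. That simulation held no slide or replicate effect, so it cannot speak to either in these data. The number of arrays limits the precision. Slide was read from the file headers. Normexp (offset 50) used the median signal, since the files used here hold no mean signal. The reference gene table (TAIR10.1) held the locus of 26019 of 26236 probes with a locus and gave neighbours and symbols; the files name no genome build, so positions are not given. Roles of genes are general background.

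Every member could be named, and values by array are given for the 12 largest called changes at 72 h, the lambda, zeta and theta members, members called at 1 time only and neighbours that moved in opposite directions; partner genes were named when called, and GSH1, GR1 and ABCC1, which were not, to complete their lists. The values of GSTF7 and GSTF12 by array were added after their changes were seen. The members and lists were chosen with earlier results of these data known. The 20 alternatives are given in the closing section. Same-numbered replicates deviated together in some pairs only (correlations of deviations -0.04 to 0.40).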

Additional observations from a re-analysis of the deposited data

How the results depend on the processing

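Under 20 alternatives (19 planned, and slides 3 and 4 left out, chosen after seeing the data), the counts of called members stayed within 1.5 times the reported ones. Higher members numbered 17 to 24 at 48 h (17 to 23 with 1 array left out) and 18 to 28 at 72 h (18 to 23), lower members 3 to 4 and 4 to 7, and members called between 48 h and 72 h 0 throughout. The F test called 18 to 32 members under the 19 alternatives in which it could be run. Of 25 calls at 48 h 19 held in all 20, and of 27 at 72 h 20 did; none of these calls changed sign. The calls that ended, and the causes of their ending were not tested, are given with the genes. With the replicate number as a block, 23 members were higher and 4 lower at 48 h and 23 higher and 6 lower at 72 h. The additions were GSTU5 and GSTU17 (adjusted p = 0.00865 to 0.0414), and 6743 and 8152 of all genes were called. For 8 of 9 arrays, the deviation from the mean of its time correlated best, among arrays of other times, with that of an array of its own number. Same-numbered arrays shared a slide except that replicate 3 of 72 h was on slide 4. The labels do not say that a number marks anything shared.

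The share of called genes that were higher was 47.3% at 48 h and 46.5% at 72 h over all genes. Other scalings gave 38.4% (median), 49.3% (quantile), 38.9% (normexp) and 59.6% (deposited table) at 48 h, and 44.7%, 50.1%, 36.9% and 65.2% at 72 h. The all-gene median shifted by -0.103 under median scaling at 48 h, and by 0.136 and 0.224 in the deposited table, where 28 members were higher at 72 h and GSTU16 (0.78, adjusted p = 0.0488), GSTU19 (0.61, adjusted p = 0.0196), GSTU27 (0.71, adjusted p = 0.035), GSTF4 (0.61, adjusted p = 0.0409) and GSTF5 (1.37, adjusted p = 0.0406) were among the additions. GSTU19 also passed at 72 h with quantile normalization (0.73, adjusted p = 0.00266), and GSTU27 with normexp (0.51, adjusted p = 0.0393) or without 0 h replicate 1 (0.64, adjusted p = 0.0294).

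Changes that turned sign were near 0 or of dim probes, and none was called before or after. At 48 h these were GSTU20 with median scaling (-0.0552), without 0 h replicate 2 (-0.0114) or 3 (-0.00294) and without 48 h replicate 2 (-0.027); GSTF2 with median scaling (-0.0794), without 0 h replicate 1 (-0.0484) or 2 (-0.0274), without 48 h replicate 3 (-0.162) and without slides 3 and 4 (-0.0391); GSTF5 with normexp (-0.221) and without 0 h replicate 1 (-0.0159); GSTU15 with normexp (-0.403) and without slides 3 and 4 (-0.0153); and GSTU6 without 48 h replicate 2 (-0.00495). At 72 h they were GSTU15 with normexp (-0.261), GSTU21 with normexp (-0.516), without 0 h replicate 3 (-0.558) and without 72 h replicate 1 (-0.0857) or 2 (-0.419), and GSTL3 without 0 h replicate 3 (-0.0511) and without 72 h replicate 2 (-0.0309). With 1 array left out, the highest values were 0.157 for GSTU20, 0.162 for GSTF2, 0.81 for GSTF5 and 0.337 for GSTU6 at 48 h, and 0.885 for GSTU21 and 0.121 for GSTL3 at 72 h. With detection required on all 9 arrays, GSTU15 was not tested. Dim probes such as those of GSTU15, GSTU21 and GSTF5 limit what these arrays can show.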
